A study of Mus musculus with 6 samples.

Results

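Type I interferon-stimulated antiviral genes were followed over *Trp53* genotypes in *Apc*-mutant mouse intestinal tumor organoids. The 10 genes *Isg15*, *Usp18*, *Ifit1*, *Ifit2*, *Ifit3*, *Oas1a*, *Oas1g*, *Oas2*, *Irf7* and *Rsad2* were taken by name from the 36172 genes of an rpkm table (mapped reads scaled by gene length and library size). The table held 6 poly(A) RNA libraries, 2 of each of 3 genotypes, and asked how tumor cells that carry a missense p53 differ from cells with wild-type p53 and from cells that lack p53. Of the 7 members abundant enough to be tested, 6 were called higher in the missense than in the wild-type libraries, where 5.86% of all genes tested were, but 5 of these 6 entered the test only through the missense libraries, and 50.4% of the genes that entered in this way were called higher. In the p53-null libraries 0 members were called higher (4.38% of all genes) and *Irf7* was called lower (6.9% of all genes).

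Organoids are epithelial cultures grown in a gel, here from small intestinal tumors of C57BL/6 mice, with ages of 15 to 20 weeks in the labels. All 6 libraries carried the *Apc* allele truncated at codon 716, with loss of the other *Apc* copy in the tumor. *Trp53+/+* organoids kept wild-type p53. *Trp53flox/flox* organoids carried on both alleles a *Trp53* R270H knock-in behind a stop cassette that had not been removed, which is null in function. In *Trp53R270H/R270H* organoids, p53(M/M) in the labels, villin-CreER and tamoxifen had removed the cassette in intestinal epithelium, so both alleles expressed p53 R270H. *Trp53R270H/R270H* and *Trp53flox/flox* organoids thus differ in the recombined allele and in the tamoxifen given to the mice, and the *Trp53+/+* libraries serve as the controls of both mutant genotypes. Each genotype rested on organoids of 2 mice, and libraries are numbered 1 and 2 within a genotype.

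When type I interferon binds its receptor, the kinases Jak1 and Tyk2 start a signal that ends in a complex with Irf9, which binds interferon-stimulated response elements before a set of antiviral genes. The members act at different steps of the defense that follows. Isg15 is a ubiquitin-like protein linked to other proteins, Usp18 removes it and also dampens receptor signaling, Ifit proteins bind viral RNA, the Oas family includes enzymes that sense double-stranded RNA and activate RNase L, Rsad2 (viperin) makes a chain-terminating nucleotide, and Irf7 amplifies interferon production. Intestinal epithelium uses this program, together with type III interferon, against enteric viruses.

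The core of the response element can be written GAAANNGAAA, where N is any base, and it was searched on both strands from 250 bases before to 50 bases after the RefSeq transcription starts of GRCm38.p6. These starts are the table's own and can lie inside the gene's full span. A window was given for 8 of the 10 members, the exceptions being *Usp18* and *Oas2*, and 6 of these 8 genes (75%) held at least 1 match. The same letters were found for 733 of the 18643 genes of the rpkm table with a window (3.93%), and for 13 of 38 other interferon-induced antiviral genes (34.2%). The stretches with the matches are shown 5′ to 3′ on the gene's strand, with the matched bases in capitals. They set the genes that rose beside 2 genes with the same letters that stayed at or near the lowest value of the rpkm table. A match on the opposite strand reads TTTCNNTTTC here.
*Isg15*, chr4:156200855-156200916, minus strand: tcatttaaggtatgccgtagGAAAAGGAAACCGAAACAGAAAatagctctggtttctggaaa
*Ifit1*, chr19:34640765-34640833, plus strand: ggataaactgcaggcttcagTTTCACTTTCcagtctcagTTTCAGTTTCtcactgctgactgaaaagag
*Oas1a*, chr5:120907526-120907565, minus strand: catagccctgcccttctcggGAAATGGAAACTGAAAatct
*Oas1g*, chr5:120887614-120887651, minus strand: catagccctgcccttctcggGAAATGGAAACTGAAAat
*Ifit3*, chr19:34583353-34583436, plus strand: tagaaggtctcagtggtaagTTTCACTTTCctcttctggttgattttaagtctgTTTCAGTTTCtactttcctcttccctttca
*Rsad2*, chr12:26456543-26456592, minus strand: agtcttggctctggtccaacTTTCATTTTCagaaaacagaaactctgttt

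*Isg15* held 3 overlapping matches, from 78 to 57 bases before its start. *Oas1a* and *Oas1g* each held 2 overlapping matches directly before the start, and the whole 38-base run shown for *Oas1g* recurs in the run of *Oas1a*. *Ifit1* and *Ifit3* each held 2 separate matches on the opposite strand, and *Rsad2* held 1. Neither of the 2 *Ifit2* windows nor the *Irf7* window held the letters, which says only that this spelling is not in these windows.

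**Figure D1:**
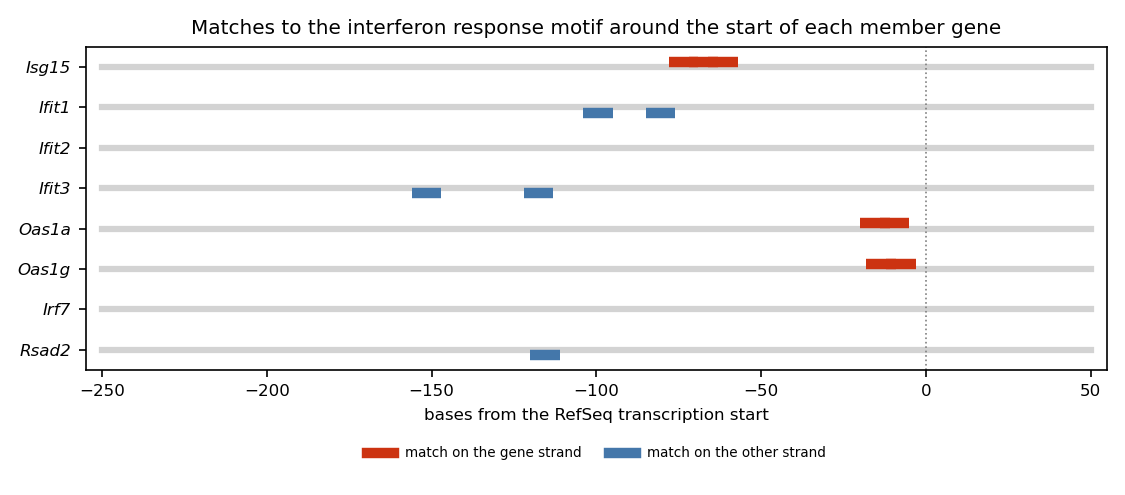
Positions of matches to GAAANNGAAA in the promoter windows of the 8 members with a window, in bases from the RefSeq transcription start (x axis, dotted line at 0). Each grey bar spans 250 bases before to 50 bases after the start, red blocks are matches on the gene's strand and blue blocks matches on the opposite strand; *Ifit2*, drawn as 1 bar for its 2 windows, and *Irf7* have none.

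Depth, estimated from steps of 1 read in the rpkm values of short RNA genes, lay between 44.2 and 47.4 M mapped reads in 5 libraries, and the estimate for *Trp53flox/flox* library 1 rested on only 7 genes and is not used. No value of the table is under 1 rpkm, so a value of 1 is read as at or under this floor, and 12412 genes were above it in at least 1 library. The *Trp53* message checked the *Trp53flox/flox* labels alone: it was 75.9 and 74.3 rpkm in *Trp53+/+*, 72.8 and 82.7 rpkm in *Trp53R270H/R270H*, and 1.73 and 2.48 rpkm in *Trp53flox/flox*. Its level cannot tell missense from wild-type libraries. The *Trp53flox/flox* libraries differed most from each other, with a median s.d. of log2(rpkm+1) of 0.25, against 0.05 in *Trp53+/+* and 0.06 in *Trp53R270H/R270H*. All 9 epithelial markers were above the floor, with sums of 2755 and 2717 rpkm in *Trp53+/+*, 4307 and 4027 rpkm in *Trp53flox/flox*, and 2259 and 2404 rpkm in *Trp53R270H/R270H*. Of these, *Krt8*, *Krt18* and *Krt19* were called lower in *Trp53R270H/R270H* than in *Trp53flox/flox* (0.53, 0.57 and 0.33 times its mean, limma adjusted p=0.0112, 0.0192 and 0.00657). *Krt19* was also called lower than in *Trp53+/+* (0.59 times, limma adjusted p=0.0469). The others were not called: *Cdh1*, *Vil1* and *Cdx2* also had their lowest mean in *Trp53R270H/R270H*. *Cdx1* (31.6 rpkm) and *Krt20* (4.61 rpkm) had their highest mean there, and *Epcam* lay between. The part of these markers in the members' values was not tested. Of 13 leukocyte markers 11 stood at the floor in all 6 libraries, *Ptprc* (CD45) among them, and the list summed to 22.3 and 22.1 rpkm in *Trp53+/+*, 14.1 and 26.0 rpkm in *Trp53flox/flox*, and 14.2 and 14.4 rpkm in *Trp53R270H/R270H*. Fibroblast markers were all under 4 rpkm, with 3 of 6 at the floor everywhere, and of 4 endothelial markers only *Cdh5* was above the floor.

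*Isg15* (chr4:156199424-156200818) and *Usp18* (chr6:121245906-121270917) are the members that take part in Isg15 conjugation and removal. *Isg15* was 1.00 and 1.42 rpkm in *Trp53+/+*, 1.36 and 2.18 rpkm in *Trp53flox/flox*, and 4.98 and 4.68 rpkm in *Trp53R270H/R270H*. *Usp18* was 1.14 and 1.55 rpkm in *Trp53+/+*, at the floor in both *Trp53flox/flox* libraries, and 11.0 and 8.67 rpkm in *Trp53R270H/R270H*. For both genes the *Trp53R270H/R270H* libraries were above the other 4 with a wide gap. For *Usp18* the rpkm values resolved into whole reads, 862 and 697 reads in *Trp53R270H/R270H* against 95 and 129 reads in *Trp53+/+*. The difference thus did not rest on a handful of reads. With 95 reads at 1.14 rpkm, a value at the floor does not show that reads were absent. In bulk RNA, more cells that express a gene and more RNA per cell cannot be told apart.

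Of the *Ifit* cluster on chromosome 19, *Ifit1* and *Ifit2* rose and *Ifit3* stayed at the floor. *Ifit1* (chr19:34640889-34650009), which binds viral RNA that lacks a methylated cap, was 1.22 and 1.12 rpkm in *Trp53+/+*, 1 and 1.40 rpkm in *Trp53flox/flox*, and 3.76 and 4.49 rpkm in *Trp53R270H/R270H*. *Ifit2* (chr19:34550550-34576534) was 1.16 and 1.00 rpkm in *Trp53+/+*, 5.36 and 2.58 rpkm in *Trp53flox/flox*, and 7.30 and 7.00 rpkm in *Trp53R270H/R270H*. *Ifit2* thus ordered the genotypes without overlap, with the null organoids between the others, whereas *Ifit1* was low in all 4 libraries without the missense protein. *Ifit3* (chr19:34583119-34588982) stood at 1 rpkm in all 6 libraries, although its promoter window holds 2 matches to the element. Its near-copy *Ifit3b* was also at 1 rpkm throughout. The longest coding transcripts of these copies are 98% identical over 1697 aligned bases, with 51.2% of the 50-base windows of *Ifit3* found whole in *Ifit3b*, and how the authors' counting treated reads that fit both is not given in the sources used here, so the level of either copy is uncertain.

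Among the oligoadenylate synthetases, the neighbours *Oas1a* and *Oas1g* rose and *Oas2* stayed at the floor. *Oas1a* (chr5:120896256-120907544) was 1.00 and 1.14 rpkm in *Trp53+/+*, 1 and 3.28 rpkm in *Trp53flox/flox*, and 9.85 and 12.4 rpkm in *Trp53R270H/R270H*. *Oas1g* (chr5:120876142-120887613) was at 1 rpkm in both *Trp53+/+* libraries, 1 and 1.17 rpkm in *Trp53flox/flox*, and 3.83 and 4.94 rpkm in *Trp53R270H/R270H*. In both genes every *Trp53R270H/R270H* value was above every other, and the single raised null value was that of library 2 for *Oas1a*. The longest coding transcripts of the pair are 97.5% identical over 1860 aligned bases and 56.9% of the 50-base windows of *Oas1a* occur whole in *Oas1g*, so reads could move between the pair and their levels are not independent. *Oas2* (chr5:120730333-120749886), a larger synthetase, stood at 1 rpkm in all 6 libraries.

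*Irf7* (chr7:141263183-141266499), the transcription factor among the members, had another pattern. It was 4.23 and 4.83 rpkm in *Trp53+/+*, 4.37 and 6.04 rpkm in *Trp53R270H/R270H*, and 2.12 and 1.74 rpkm in *Trp53flox/flox*. The wild-type and missense values overlapped and both null values lay below the other 4, which was also so for 22.2% of the 10042 genes tested. *Rsad2* (chr12:26442743-26456452) was at 1 rpkm in both *Trp53+/+* libraries, 2.10 and 1.52 rpkm in *Trp53flox/flox*, and 1.08 and 1.46 rpkm in *Trp53R270H/R270H*, below the filter of the test in every library. Its 2 null values were the highest, as for 17.3% of the genes above the floor, and no fold is tested for it.

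**Figure D2:**
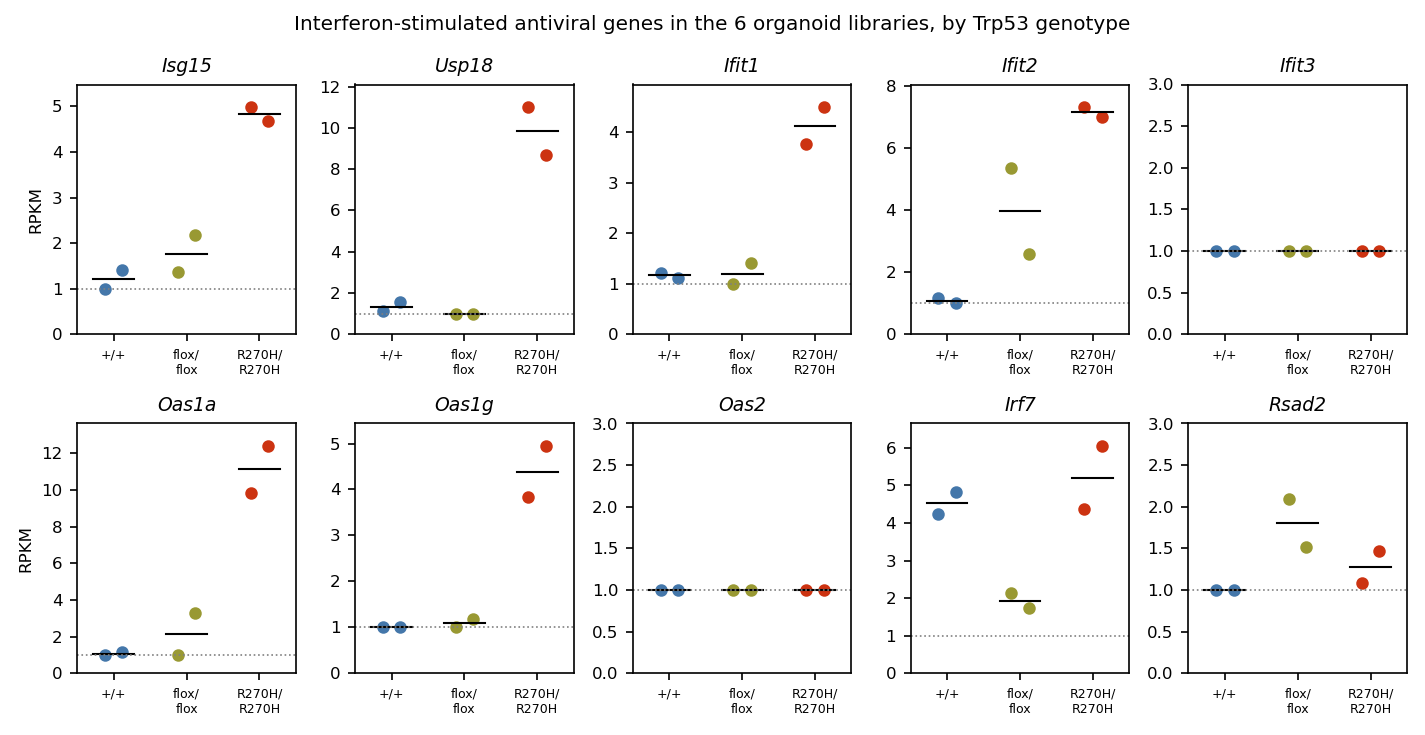
Rpkm of the 10 members in each library (y axis, linear, a scale for each gene), with *Trp53* genotype on the x axis, points for libraries, short lines for the mean of 2 libraries and a dotted line at the floor of 1 rpkm. *Isg15*, *Usp18*, *Ifit1*, *Ifit2*, *Oas1a* and *Oas1g* have both R270H/R270H points above the other 4, *Irf7* is lowest in flox/flox, and *Ifit3* and *Oas2* lie on the floor.

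The order of the members by level also differed between genotypes, in rpkm, which is per length of gene. In *Trp53+/+* *Irf7* stood first, at 4.53±0.42 rpkm (mean±s.d., n=2), and the other 9 members had means of 1.35 rpkm or less, too close to the floor to be ordered. In *Trp53R270H/R270H* *Oas1a* (11.1±1.79 rpkm) and *Usp18* (9.83±1.65 rpkm) led with values that overlapped, *Ifit2* followed at 7.15±0.21 rpkm, and *Irf7* (5.20±1.18 rpkm), *Isg15* (4.83±0.22 rpkm), *Oas1g* (4.38±0.79 rpkm) and *Ifit1* (4.13±0.52 rpkm) were not separated beyond their spread. In *Trp53flox/flox* *Ifit2* led with 3.97±1.97 rpkm, but in library 2 it was below *Oas1a*. The 10 members summed to 13.8 and 15.1 rpkm in *Trp53+/+*, 16.9 and 16.9 rpkm in *Trp53flox/flox*, and 48.2 and 51.7 rpkm in *Trp53R270H/R270H*, floored values counted as 1.

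Missense against wild-type p53 was compared with limma on log2(rpkm+1) in a fit of all 6 libraries, for the 10042 genes that reached 4 rpkm in any library, and a gene was called at a Benjamini-Hochberg adjusted p under 0.05. The fit used a common spread for all genotypes. This test took in 7 members. *Ifit3*, *Oas2* and *Rsad2* did not reach 4 rpkm. *Isg15*, *Usp18*, *Ifit1*, *Oas1a* and *Oas1g* reached 4 rpkm in *Trp53R270H/R270H* libraries alone, so their entry already depended on a high value there: of the 361 genes that entered in this way, 50.4% were called higher than in *Trp53+/+*. Of the 7 members, 6 were called higher and 0 lower, where 5.86% of all genes tested were called higher and 6.36% lower. The median log2 difference of the 7 was 1.42, and that of all genes 0.03. Both *Trp53R270H/R270H* values were above the other 4 for 6 members, and for 26.5% of all genes tested.

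The largest difference on the log2(rpkm+1) scale was that of *Oas1a*, 2.54±0.37 (±SE, limma adjusted p=0.0189), a 10.4-fold ratio of mean rpkm. *Usp18* differed by 2.20±0.18 with the smallest adjusted p of the members (limma, 0.00441), a 7.30-fold ratio. *Ifit2*, which could enter the test through a *Trp53flox/flox* library as well, differed by 1.97±0.29 (limma adjusted p=0.0183), and its 6.63-fold ratio is a lower bound, since a *Trp53+/+* library was at the floor. These 3 genes, of RNA sensing, Isg15 removal and RNA binding, thus differed more than 6-fold in mean rpkm.

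*Oas1g*, with both *Trp53+/+* libraries at the floor, was at least 4.38-fold higher (log2 difference 1.42±0.17, limma adjusted p=0.0120). *Isg15* was at least 3.99-fold higher, as *Trp53+/+* library 1 was at the floor (1.40±0.21, limma adjusted p=0.0191), and *Ifit1* 3.52-fold higher (1.24±0.17, limma adjusted p=0.0171). *Irf7* was not called, with a difference of 0.15 and a 95% interval from -0.32 to 0.63 (limma adjusted p=0.617). The log scale with a pseudocount of 1 understates the change of such low genes.

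These calls depended on having 2 libraries in the wild-type and missense groups. Without either *Trp53+/+* library, or without *Trp53R270H/R270H* library 1, limma called 0 members and 0 of all genes tested, while 6 members and 1470 to 1578 genes had an unadjusted p under 0.05. Without *Trp53R270H/R270H* library 2, 1 member (*Usp18*) and 113 genes in all were called. The log2 differences themselves moved little, from 2.39 to 2.69 for *Oas1a*, from 2.05 to 2.36 for *Usp18* and from 1.92 to 2.03 for *Ifit2* over the fits that left out 1 library. An exact two-sided permutation test of 2 against 2 libraries cannot go below p=0.333, so such a test cannot pass the threshold for any gene. Of the leukocyte, fibroblast and endothelial markers, only *Cd68* and *Cdh5* reached 4 rpkm, and the others were not tested. *Cd68* was 10.2 and 9.87 rpkm in *Trp53+/+* and 2.22 and 2.41 rpkm in *Trp53R270H/R270H* (not called, limma adjusted p=0.130). The endothelial *Cdh5* was 8.88 and 9.35 rpkm against 1.04 and 1 rpkm (called lower, limma adjusted p=0.0224). The part of such cells in the members' values was not tested.

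Null against wild-type p53 shares its *Trp53+/+* libraries with the preceding comparison. Here 0 of the 7 members tested were called higher, beside 4.38% of all genes, and 1 was called lower, beside 6.9% of all genes. At an unadjusted limma p under 0.05 there was 1 in each direction, beside 3489 of all 10042 genes in either direction. The one called was *Irf7*, which was 0.43 times its wild-type mean and fell by 0.92 on the log2 scale (SE 0.19, limma adjusted p=0.0409). This call was lost when either *Trp53+/+* or either *Trp53R270H/R270H* library was left out (limma adjusted p from 0.101 to 0.310), when the replicate number was a block (0.0842) and in a fit of these 2 genotypes alone (0.0938). *Ifit2* was 3.68-fold the wild-type mean, a lower bound, with a log2 difference of 1.20±0.29 (limma adjusted p=0.0583). It passed the threshold without *Trp53flox/flox* library 1 (0.78, adjusted p=0.00456) and without library 2 (1.61, adjusted p=0.000359), each leaving a single null library whose spread is assumed to be that of the others.

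In the fit of all 6 libraries, the other 5 members did not pass in the null organoids. Their intervals leave room for changes of either sign. The 95% interval of the log2 difference was -0.21 to 0.84 for *Isg15*, -0.68 to 0.23 for *Usp18*, -0.43 to 0.46 for *Ifit1*, -0.45 to 1.45 for *Oas1a* and -0.38 to 0.50 for *Oas1g*. These intervals assume a common spread for all genotypes, though the null libraries differed most from each other. With a weight for each genotype, the SE was 0.40 for *Isg15*, 0.43 for *Usp18* and 0.40 for *Oas1a*. In the main fit it was 0.21, 0.18 and 0.37, so the intervals may be too narrow. Without *Trp53flox/flox* library 1, the log2 differences were 0.53 for *Isg15* and 1.05 for *Oas1a*, against 0.32 and 0.50 with both libraries. That fit leaves a single null library whose spread is assumed to be that of the others, so it cannot decide either gene. *Trp53flox/flox* library 1 had the lowest *Cd68*, a macrophage and lysosome marker, of 2.06 rpkm against 11.1 rpkm in library 2, where *Laptm5* (3.85 rpkm) and 3 fibroblast markers (*Col1a1* 2.44, *Pdgfra* 1.23 and *Dcn* 1.05 rpkm) were above the floor. The part of such cells in the *Isg15*, *Oas1a* and *Ifit1* values of library 2 was not tested.

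Missense against null p53 sets organoids with the missense protein beside organoids that also lack wild-type p53, and is the test of the difference between the other comparisons. Tamoxifen and Cre recombination go with the missense group and cannot be told apart from the protein. In *Trp53R270H/R270H* 6 of the 7 members tested were called higher and 0 lower, beside 13.6% and 11% of all genes, and beside 72.9% higher among the 361 genes that reached 4 rpkm in *Trp53R270H/R270H* alone. The 7 had a median log2 difference of 1.22, and all genes 0.03. With a weight for each genotype in place of the common spread, 2 members were called higher. *Usp18* was at least 9.83-fold higher (2.43±0.18, limma adjusted p=0.00283), *Oas1a* 5.20-fold or more (2.04±0.37, limma adjusted p=0.0218) and *Oas1g* 4.04-fold or more (1.36±0.17, limma adjusted p=0.0100). *Ifit1* was higher by 1.22±0.17 (limma adjusted p=0.0132), *Isg15* by 1.09±0.21 (limma adjusted p=0.0240) and *Irf7*, low in the null organoids, by 1.07±0.19 (limma adjusted p=0.0195).

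*Ifit2* was the member not called in this comparison, with a log2 difference of 0.77, a 95% interval from 0.04 to 1.50 and a limma adjusted p of 0.104. It was called when *Trp53flox/flox* library 1 (1.19, adjusted p=0.00103) or library 2 (0.36, adjusted p=0.0170) was left out. The calls of *Isg15*, *Ifit1*, *Oas1a* and *Irf7* were lost when any one *Trp53+/+* or *Trp53R270H/R270H* library was left out, with adjusted p up to 0.169, and only *Usp18* and *Oas1g* kept theirs. The 5 members *Isg15*, *Usp18*, *Ifit1*, *Oas1a* and *Oas1g* were called higher in *Trp53R270H/R270H* than in each of the other genotypes. These are also the 5 that entered the test through *Trp53R270H/R270H* alone. Of the 361 genes that entered in this way, 50.4% were called higher than in *Trp53+/+* and 72.9% higher than in *Trp53flox/flox*. The share of genes called higher in both comparisons was not counted, so nothing is read from the 5.

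**Figure D3:**
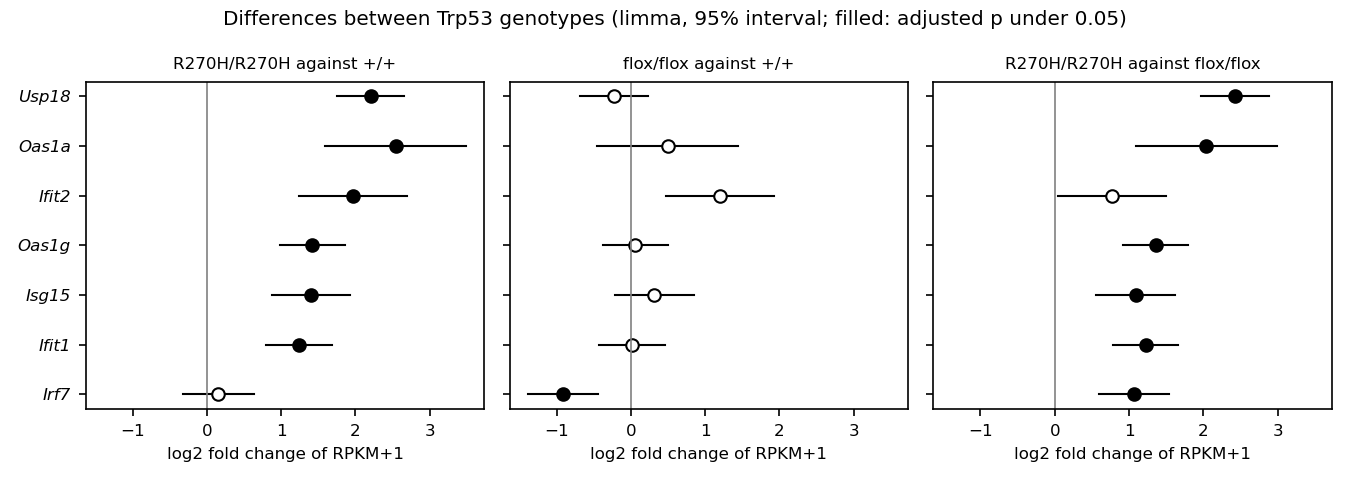
Log2 fold change of rpkm+1 (x axis) of the 7 tested members in the 3 comparisons of genotypes, as points with 95% intervals from limma, filled where the adjusted p was under 0.05. Against +/+ and against flox/flox, R270H/R270H has 6 filled points to the right of 0 each; in flox/flox against +/+ only *Irf7* is filled, to the left, at -0.92.

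The rest of the interferon system was measured beside the members. All 21 type I, II and III interferon ligand genes of the table stood at the floor of 1 rpkm in all 6 libraries. Of 14 genes of the receptors and the JAK-STAT chain, 13 were tested. Against *Trp53+/+*, limma called 0 of them in *Trp53R270H/R270H* and 0 in *Trp53flox/flox*. At an unadjusted limma p under 0.05, 4 were higher in *Trp53R270H/R270H* and 0 differed in *Trp53flox/flox*, beside 3209 and 3489 of all 10042 genes. Against *Trp53flox/flox*, 3 of the 13 were called higher in *Trp53R270H/R270H*, *Irf9* and *Ifnar1* among them, and 0 lower, beside 13.6% and 11% of all genes. *Irf9*, a DNA-binding part of that complex, was 3.77 and 3.92 rpkm in *Trp53+/+*, 1.39 and 3.42 rpkm in *Trp53flox/flox*, and 8.50 and 9.04 rpkm in *Trp53R270H/R270H*. Both missense values were thus above the other 4, at a log2 difference of 1.59±0.30 from null (limma adjusted p=0.0231) and of 1.01±0.30 from wild type (adjusted p=0.0882). *Irf9* reached 4 rpkm in *Trp53R270H/R270H* libraries alone, and 72.9% of the genes that entered the test in this way were called higher than in null. *Ifnar1*, a chain of the type I receptor, was 15.6±0.63 rpkm (n=2) in *Trp53R270H/R270H*, against 7.59 and 10.2 rpkm in *Trp53flox/flox* (limma adjusted p=0.0267).

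Of 7 tested genes of nucleic acid sensing, *Ddx58* and *Tbk1* were called higher in *Trp53R270H/R270H* than in each other genotype. Of all genes tested, 5.86% were called higher against *Trp53+/+* and 13.6% against *Trp53flox/flox*. *Ddx58* (RIG-I, a sensor of viral RNA and itself interferon-inducible) was 5.80 and 5.45 rpkm in *Trp53+/+*, 5.24 and 6.25 rpkm in *Trp53flox/flox*, and 17.3 and 15.5 rpkm in *Trp53R270H/R270H*. The wild-type and null values overlapped and the missense values were 2.91-fold the wild-type mean (1.39±0.13, limma adjusted p=0.00594). *Tbk1*, the kinase that activates Irf3 and Irf7, was 1.39-fold the wild-type mean (limma adjusted p=0.0438). *Irf3* was lower in *Trp53R270H/R270H*, at 8.76 and 11.6 rpkm against 17.7 and 17.0 rpkm in *Trp53+/+* (limma adjusted p=0.0431), and was also called lower than in *Trp53flox/flox* (adjusted p=0.0313). *Irf1* was higher in *Trp53flox/flox* than in each other genotype (16.7 and 17.0 rpkm, against 11.2 and 9.27 rpkm in *Trp53+/+*; limma adjusted p=0.0344). *Tlr3* was called lower in *Trp53R270H/R270H* than in *Trp53flox/flox* (log2 difference -0.51, limma adjusted p=0.0307).

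Of 6 genes of Isg15 conjugation and removal, the members *Isg15* and *Usp18* included, 4 were tested. *Ube2l6*, the conjugating enzyme for Isg15, was 7.26 and 7.70 rpkm in *Trp53R270H/R270H*, 5.50 and 5.99 rpkm in *Trp53+/+*, and 3.18 and 4.89 rpkm in *Trp53flox/flox*, and was called against null alone (limma adjusted p=0.0414). Of 52 other antiviral genes, 15 stood at the floor in all 6 libraries, *Mx1* and *Mx2* among them, and 25 were tested. In *Trp53R270H/R270H* against *Trp53+/+*, 5 of the 25 were called higher and 1 lower, beside 5.86% and 6.36% of all genes, with a median log2 difference of 0.17. In *Trp53flox/flox* against *Trp53+/+*, 2 were called higher (*Parp9* and *Parp12*) and 1 lower (*Lgals3bp*), beside 4.38% and 6.9% of all genes, with a median of -0.06. In *Trp53R270H/R270H* against *Trp53flox/flox*, 5 were called higher (*Eif2ak2*, *Ifi27*, *Ifi35*, *Ifit1bl1* and *Samhd1*) and 0 lower, beside 13.6% and 11% of all genes, with a median of 0.12. At an unadjusted limma p under 0.05, 7 of the 25 were higher and 1 lower in this comparison, beside 4269 of all 10042 genes in either direction. In *Trp53R270H/R270H* against *Trp53+/+*, 6 were higher and 2 lower, beside 3209 genes. In *Trp53flox/flox* against *Trp53+/+*, 4 were higher and 6 lower, beside 3489 genes.

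Of these, *Ifi27*, a mitochondrial interferon-induced protein, was 6.80 rpkm in each *Trp53+/+* library, 5.08 and 3.48 rpkm in *Trp53flox/flox*, and 19.6 and 23.5 rpkm in *Trp53R270H/R270H*. *Ifit1bl1* was 1.05 and 1.00 rpkm in *Trp53+/+*, 2.25 and 1.55 rpkm in *Trp53flox/flox*, and 4.01 and 4.02 rpkm in *Trp53R270H/R270H*, and its span (chr19:34592888-34662981) overlaps that of *Ifit1*, so the values of both may share reads. *Ifi27* and *Ifit1bl1* thus rose with the members, by 1.53 and 1.31 on the log2 scale against *Trp53+/+* (limma adjusted p=0.0119 and 0.0151). *Ifit1bl1*, unlike *Ifi27*, reached 4 rpkm in *Trp53R270H/R270H* libraries alone. Of the genes that entered the test in this way, 50.4% were called higher than in *Trp53+/+* and 72.9% higher than in *Trp53flox/flox*. *Samhd1*, which depletes the nucleotides that viruses need, was 12.4 and 12.5 rpkm in *Trp53R270H/R270H* against 6.95 and 6.69 rpkm in *Trp53+/+* (limma adjusted p=0.0133). Its *Trp53flox/flox* values, 8.85 and 8.81 rpkm, lay between and were not called against *Trp53+/+* (limma adjusted p=0.0882). *Parp9* rose in both mutant genotypes, to 9.85 and 10.2 rpkm in *Trp53R270H/R270H* and 9.27 and 10.5 rpkm in *Trp53flox/flox*, from 5.32 and 5.94 rpkm (limma adjusted p=0.0241 and 0.0295). *Lgals3bp*, a secreted glycoprotein, was lower in both, at 140 and 146 rpkm in *Trp53R270H/R270H* and 80.2 and 111 rpkm in *Trp53flox/flox*, from 258 and 261 rpkm (limma adjusted p=0.0385 and 0.0151).

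**Figure D4:**
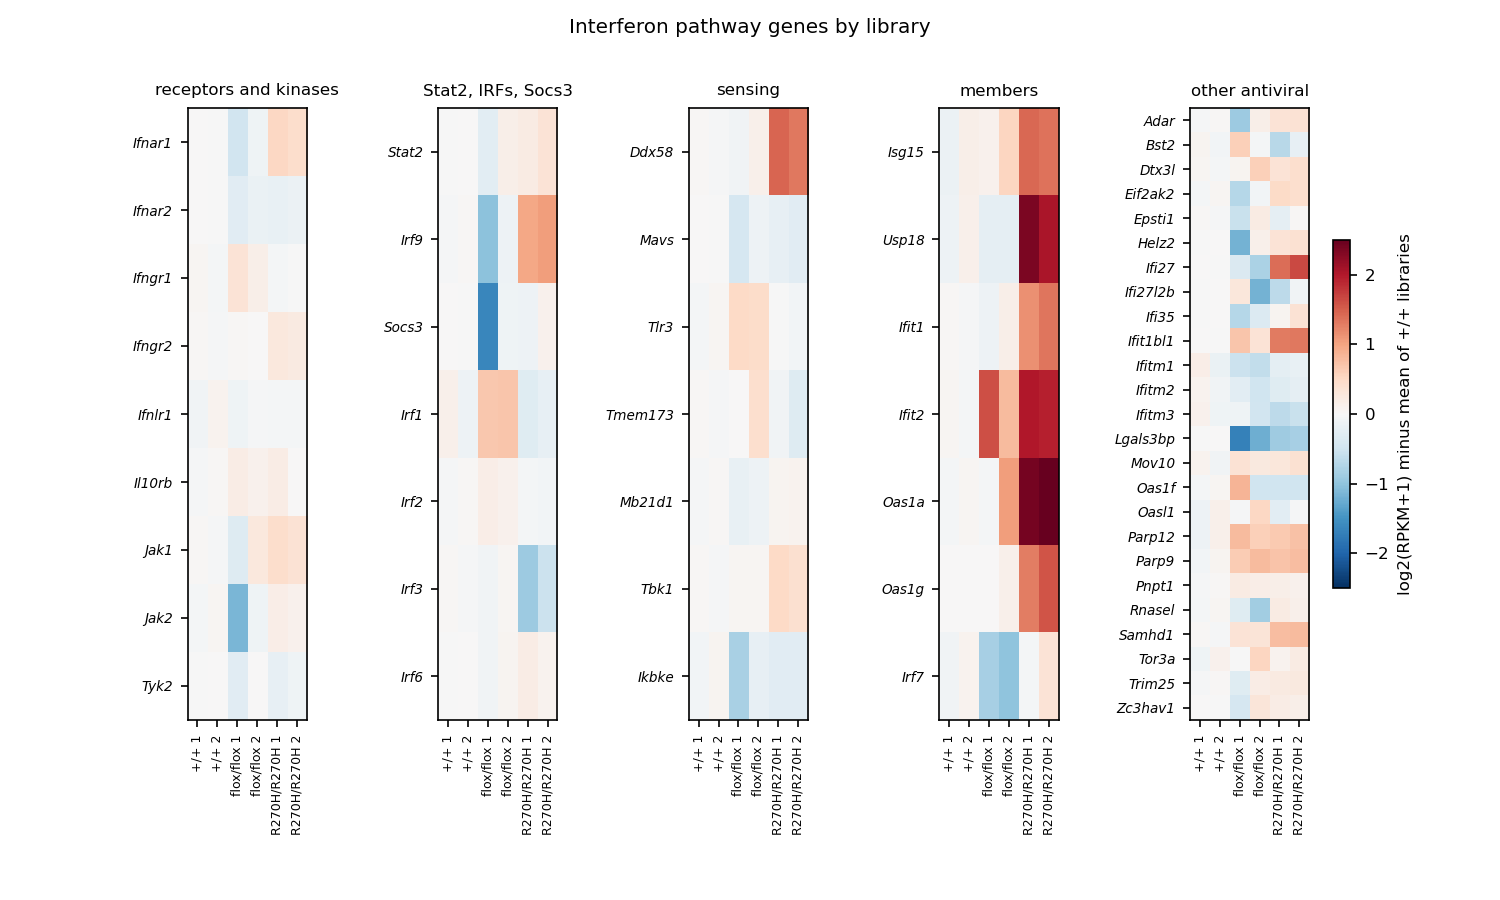
Heat map of log2(rpkm+1) minus the mean of the +/+ libraries (color scale, red higher and blue lower) for interferon pathway genes that reached 4 rpkm in any library (rows) in the 6 libraries (columns), in panels by role. Of the 7 members, 6 are red in both R270H/R270H columns, as are *Ddx58*, *Irf9*, *Ifi27* and *Ifit1bl1*, while most receptors, kinases and other antiviral genes stay pale, and flox/flox 1 departs from flox/flox 2 in several rows.

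Over the 6 libraries, the mean standardized profile of the 7 members tested was correlated with *Ifit1*, *Oas1g*, *Usp18*, *Isg15* and *Oas1a* at r from 0.96 to 1.00, with *Ifit2* at 0.76 and with *Irf7* at 0.58. These points share their libraries and the values of the members themselves. Outside the members, the genes with the most similar profile were *Upk2*, *H19*, *Sox18*, *Cacna1a* and *Wnt5b*, each at r=0.998. *H19*, an imprinted non-coding RNA, was 118 and 140 rpkm in *Trp53R270H/R270H* and at most 2.88 rpkm in the other 4 libraries, and *Upk2*, a urothelial membrane protein, was 8.36 and 9.07 rpkm against at most 1.30 rpkm. In all, 338 other genes had r over 0.95, so the profile, high in the 2 *Trp53R270H/R270H* libraries and low in the other 4, was not particular to interferon genes. Of the genes called higher in *Trp53R270H/R270H* than in *Trp53+/+* that had a promoter window, 28 of 476 (5.88%) held the interferon element, and of those called lower 12 of 501 (2.40%), beside 272 of all 8094 genes tested with a window (3.36%). These shares include the members and were not tested.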

How the data were processed

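Reads of stranded poly(A) libraries were mapped to mm10 by the authors, who deposited RPKM values computed in StrandNGS, and these were used as they stand. The StrandNGS version, annotation, read filters and the floor of 1 rpkm are not described in the sources used here, and the floor was read from the values. The depth was estimated on a grid of 20 to 70 M reads from RNA genes under 400 bases, with values within 0.02 of a whole read.

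Genes that reached 4 rpkm in any library (the authors' own filter for clustering) were fitted as log2(rpkm+1) with limma 3.58.1 in R 4.3.3 (lmFit, eBayes with trend, 6 libraries, no block, two-sided, Benjamini-Hochberg over 10042 genes). Python 3.11.15, pandas 2.3.3, scipy 1.17.1 and biopython 1.88 served for the rest. The code was tested on simulated data.

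Positions and promoters came from RefSeq (GRCm38.p6, to which mm10 corresponds) and transcript identity from the longest coding transcripts of GENCODE. All 10 members were matched by symbol. Members and lists were chosen with earlier results of these data known. Named genes are all members, *Trp53*, genes of the other lists called in at least 1 comparison (values for at most 6 of a list), and the 5 genes most correlated with the members; other genes are named as markers or where listed at the floor, and *Ifit3b* as a near-copy. Values of 1 such gene are left out. Alternatives were other filters, a pseudocount of 0.1, median-of-ratios scaling, no trend, a weight for each genotype, only 2 genotypes in a fit, a replicate block, and leaving out each library.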

Additional observations from a re-analysis of the deposited data

How the results depend on the processing

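No member that was called reversed under the settings tried; of the uncalled ones, *Irf7* in *Trp53R270H/R270H* and *Oas1a* and *Ifit1* in *Trp53flox/flox* against *Trp53+/+* changed sign when 1 library was left out (down to -0.04, -0.05 and -0.12). A filter of 4 rpkm in both libraries of a genotype left *Ifit1* and *Oas1g* untested. The count of members called higher (6 in *Trp53R270H/R270H* against *Trp53+/+*, 0 in *Trp53flox/flox* against *Trp53+/+*, 6 in *Trp53R270H/R270H* against *Trp53flox/flox*) became 2, 0 and 3 with no filter, and 6, 1 and 6 with a pseudocount of 0.1, where *Ifit2* passed in the null organoids (limma adjusted p=0.0470). The third count was 2 with a weight for each genotype and 2 with only the 2 genotypes compared in the fit. The 1 member called lower in *Trp53flox/flox*, *Irf7*, became 0 with no filter, weights, the 2 genotypes alone or a replicate block. Leaving out 1 library gave 0 to 6, 0 to 3 and 2 to 7 members higher, and 0 to 1 lower in *Trp53flox/flox*. All genes called (1227, 1133 and 2469) were 427, 73 and 750 with no filter, 5987, 150 and 534 with weights, 550, 280 and 1156 with a replicate block, 5721, 47 and 378 with 2 genotypes in the fit, and 0 to 5732, 8 to 6875 and 166 to 7259 with 1 library left out; a filter above 1 rpkm gave 1907 in the first comparison. The cause of these shifts was not tested. The replicate numbers do not pair the libraries, which come from different mice (correlations of same-numbered deviations 0.12, -0.29 and -0.20), and with the block 6, 0 and 6 members were higher. With the *Trp53R270H/R270H* numbers exchanged, chosen after seeing the data, 6, 0 and 6 members were higher, 0 were lower in *Trp53flox/flox*, and 941, 873 and 2276 genes were called. The deposited floor limits what can be said under 1 rpkm.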
